A study of Mus musculus with 30 samples.

Results

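H3K27ac regions found only in treated CK1750 cells were the merged peak regions that held a peak of CK1750 cells grown with UNC0638 and no peak in the lists of untreated CK1750, untreated Tnm2 or treated Tnm2 cells. Overlapping or touching peaks of the 4 lists on chromosomes 1 to 19 and X were merged into 37671 regions, of which 2412 (6.4%) met this rule. They made up 10.5% of the 23062 regions with a treated CK1750 peak. Of these, 268 had a score of 100 or more, which was 1.67% of the 16077 treated CK1750 regions at that score. The score is the peak caller's log10 of the P value with its sign turned and multiplied by 10, and the lists begin at 50. Since presence in the lists chose these regions, their number, scores, widths and distances to peaks of the other lists are descriptions of the same lists.

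CK1750 and Tnm2 are mouse lung adenocarcinoma cell lines, and UNC0638 inhibits G9a and Glp, the enzymes that place the first methyl groups on lysine 9 of histone H3. Both lines were cultured in DMEM with 10% fetal bovine serum and given either 1 µM UNC0638 or its vehicle DMSO, and chromatin was immunoprecipitated with antibodies to H3K27ac or H3K9me2. Of 30 samples in 12 groups, 9 were H3K27ac samples of the 4 groups with lists, with 3 samples of CK1750 with DMSO and 2 in each of the other groups. Both treated CK1750 samples carried the replicate number 2, and 2 of the 3 untreated CK1750 samples were sequencing runs of replicate 1. The other 21 samples were not analysed here. Each group had a single list, so no region had a replicate value and no difference between treated and untreated cells was tested. Intervals given below are 95% intervals and cover counting error only.

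Acetylation of histone H3 on lysine 27 marks active promoters and enhancers, and enhancers far from genes are the elements that differ most between cell states. G9a and Glp methylate lysine 9, a mark of repressed chromatin that can spread over silent genes and regulatory elements. UNC0638 occupies the site where these enzymes bind their substrate. A region described here is a place where an H3K27ac peak was called in CK1750 with the inhibitor and in no other list, also not in treated Tnm2.

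The 6 windows printed here were read from the GRCm38 reference (mm10) at the centres of 6 of the 9 highest-scoring regions. Each was centred outside exons, and they are examples of single members. Capitals mark matches to AP-1 (TGANTCA), TEAD (GGAATG), RUNX (TGTGGTT), FOX (TGTTTAC), ETS (CCGGAAG) or CEBP (TTGCNNAA) letters on either strand.
Smoc2 intron, chr17:14337296-14337595, plus strand: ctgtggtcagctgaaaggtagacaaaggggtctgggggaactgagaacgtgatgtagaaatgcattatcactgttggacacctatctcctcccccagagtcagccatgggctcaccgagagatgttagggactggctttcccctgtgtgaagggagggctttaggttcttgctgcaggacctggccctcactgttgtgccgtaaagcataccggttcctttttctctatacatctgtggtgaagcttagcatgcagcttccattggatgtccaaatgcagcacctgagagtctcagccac
B3gntl1 intron, chr11:121647184-121647483, plus strand: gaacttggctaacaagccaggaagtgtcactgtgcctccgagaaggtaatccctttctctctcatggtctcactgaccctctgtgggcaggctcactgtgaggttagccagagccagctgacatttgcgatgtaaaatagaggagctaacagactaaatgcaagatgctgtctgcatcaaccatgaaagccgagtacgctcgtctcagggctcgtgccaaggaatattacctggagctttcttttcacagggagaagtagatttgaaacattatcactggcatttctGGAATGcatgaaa
between genes near Apold1, chr6:134990809-134991108, plus strand: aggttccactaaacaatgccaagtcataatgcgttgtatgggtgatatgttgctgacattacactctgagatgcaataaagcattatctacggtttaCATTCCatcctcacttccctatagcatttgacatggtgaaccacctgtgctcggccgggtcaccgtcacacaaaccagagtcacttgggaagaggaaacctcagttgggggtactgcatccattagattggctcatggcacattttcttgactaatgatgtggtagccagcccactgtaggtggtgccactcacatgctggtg
Tmem43 intron, chr6:91474383-91474682, plus strand: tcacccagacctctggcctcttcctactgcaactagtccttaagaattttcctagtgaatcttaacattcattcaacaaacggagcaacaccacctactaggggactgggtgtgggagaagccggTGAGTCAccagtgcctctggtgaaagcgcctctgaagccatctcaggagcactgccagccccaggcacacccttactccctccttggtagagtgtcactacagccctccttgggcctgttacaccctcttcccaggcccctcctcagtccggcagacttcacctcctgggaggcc
Supt3 intron, chr17:45065058-45065357, plus strand: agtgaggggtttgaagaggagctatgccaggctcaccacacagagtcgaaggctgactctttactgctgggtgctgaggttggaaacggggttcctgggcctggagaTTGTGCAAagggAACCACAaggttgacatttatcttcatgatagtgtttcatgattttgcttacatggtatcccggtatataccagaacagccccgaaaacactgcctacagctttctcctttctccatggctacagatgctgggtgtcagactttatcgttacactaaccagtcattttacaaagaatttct
Bcar3 intron, chr3:122497151-122497450, plus strand: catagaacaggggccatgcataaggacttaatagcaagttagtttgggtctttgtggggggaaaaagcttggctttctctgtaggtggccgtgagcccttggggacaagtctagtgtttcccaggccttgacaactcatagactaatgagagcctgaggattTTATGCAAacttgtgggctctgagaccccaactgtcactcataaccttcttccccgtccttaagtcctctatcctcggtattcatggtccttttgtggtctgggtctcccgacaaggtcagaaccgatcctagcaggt

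The Smoc2 window held none of these 6 motifs, the B3gntl1 and Apold1 windows each held 1 TEAD match, the Tmem43 window held 1 AP-1 match, the Supt3 window held 1 RUNX and 1 CEBP match, and the Bcar3 window held 1 CEBP match. The windows of the regions near Rpl10-ps3 (247.4) and at Sqle (241.7), which are not printed, also held none of these 6 motifs. A match describes the letters and does not show that a factor was bound.

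Most of the regions were weak peaks. Their scores ran from 50.01 to 317.71 with a median of 64.84, and 926 of 2412 (38.4%) lay between 50 and 60. Among treated CK1750 regions scoring 50 to 60, 43.6% (41.5 to 45.7) were found in no other list. That share was 31.0% (29.3 to 32.8) at 60 to 80, 16.9% at 80 to 100, 7.58% at 100 to 150 and 0.397% at 200 to 400. Of 7282 treated regions at 400 or more, 0 were found only there, with a Wilson upper limit of 0.0527%. The regions had a median width of 635.5 bp, against a median of 1048 bp over single peaks of the treated CK1750 list. On the lower side of a score of 100 lay regions at 99.79 near Sdc1, a heparan sulfate proteoglycan gene, and at 99.97 near Runx2os3. On the upper side lay introns at 100.01 near Gm23802 and at 100.08 near Zmym1.

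**Figure D1:**
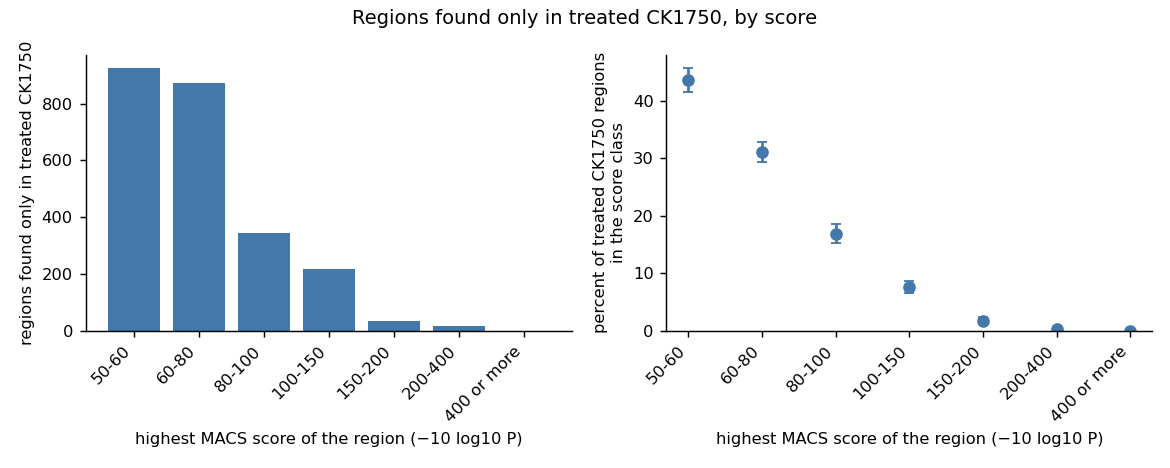
Left, number of regions found only in treated CK1750 (bars) in each class of MACS score (x axis); right, the percent of all treated CK1750 regions of that class that they made up (points, with Wilson 95% intervals). The share fell from 43.6% at 50 to 60 to 0.397% at 200 to 400, and 926 of the 2412 regions lay in the lowest class.

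Most of the 20 highest-scoring regions lay in introns or between genes. The highest, at 317.71, was 2812 bp wide in an intron of Smoc2 (chr17:14336040-14338851), a secreted calcium-binding matrix protein, and lay 57.9 kb from its TSS. A peak of untreated CK1750 cells lay 0.732 kb away, and Smoc2 had no promoter peak in any list. The second, at 303.78, lay in an intron of B3gntl1 (chr11:121646465-121648202), which encodes a predicted glycosyltransferase, 3.71 kb from a treated Tnm2 peak. The third, at 251.59, was intergenic (chr6:134990268-134991650), with its centre at a distance of 9.24 kb from Apold1. Apold1 had no promoter peak in any list.

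Others of the 20 highest lay in or near genes of varied function. They included introns of Ndst1, an enzyme of heparan sulfate synthesis (250.79), of Bcar3, an adaptor that binds the integrin scaffold p130Cas (233.41), of Inpp4b, a phosphoinositide phosphatase (222.71), and of Pkp1, a desmosome protein (190.36). An intron of Supt3, next to the bone and cartilage regulator Runx2, held a region at 236.46 (chr17:45064451-45065965) with no peak of another list for 44.0 kb. A region between genes lay 25 kb from the TSS of Fbln2, a matrix fibulin (194.83). Of these 20, the region in the Inpp4b intron was 96.5 kb from any untreated CK1750 peak, but 10.3 kb from an untreated Tnm2 peak. Those at Bcar3 and Smoc2 lay within 1 kb of an untreated CK1750 peak.

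The regions were mostly away from promoters. Of 2412, 360 (14.9%, 13.6 to 16.4) overlapped a promoter window, which reached 1 kb to either side of a TSS, against 34.8% of all merged regions and 62.7% (61.8 to 63.5) of the 12885 regions found in all 4 lists. Their centres lay in introns in 61.9% (59.9 to 63.8), between genes in 30.5% and in exons in 7.63%. With all lists cut to the 18789 highest peaks of each, the promoter share was 23.0% (21.03 to 25.13). The median distance to a TSS was 10.0 kb (9.37 to 10.9), and to a TSS of a protein-coding gene 20.9 kb. Members below 100 overlapped promoters in 14.8% (13.4 to 16.4), and regions whose treated CK1750 score was below 100 but which another list shared did so in 25.1% (23.9 to 26.3). That shared set was not matched to the members. Its median highest score in any list was 106.4 and its median width 897 bp, against 62.68 and 618 bp for members below 100. For the shared set that score could come from any of the 4 lists, for members only from treated CK1750. Regions found only in untreated CK1750 had a promoter share of 16.5% (15.4 to 17.7), those found only in treated Tnm2 12.8% and those found only in untreated Tnm2 12.3%, so a low promoter share was seen in each set of regions from a single list.

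**Figure D2:**
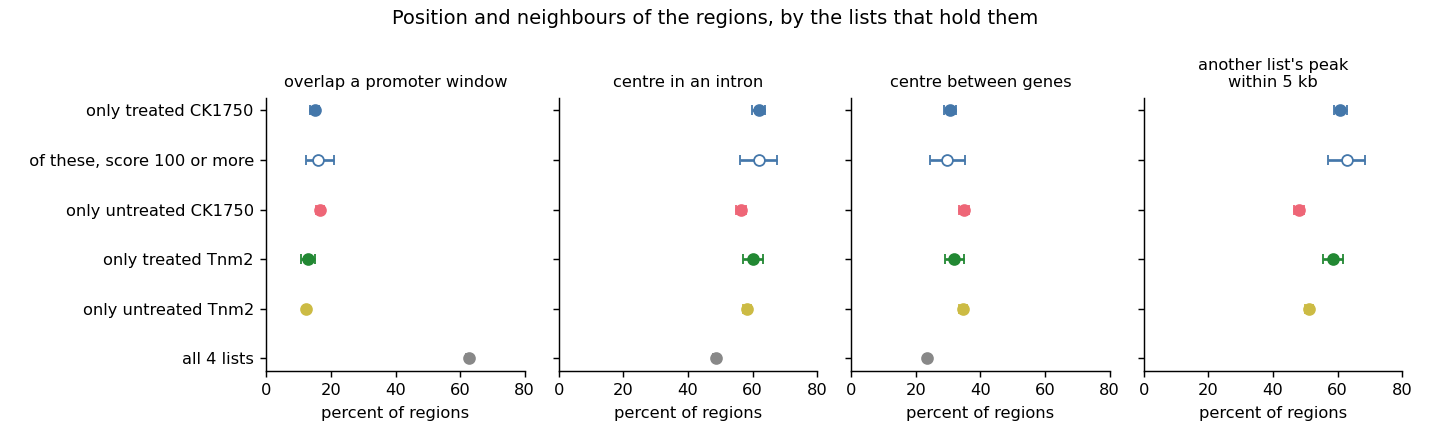
Percent of regions (x axes) that overlapped a promoter window, had their centre in an intron or between genes, or lay within 5 kb of another list's peak, for regions grouped by the lists that held them (rows). Points show shares and bars Wilson 95% intervals, the open point shows members scoring 100 or more, and the last panel has no point for regions in all 4 lists; 14.9% of members overlapped a promoter window against 62.7% of regions in all 4 lists.

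The regions often lay beside acetylated chromatin of the other lists. A peak of another list lay within 1 kb of 35.7%, within 5 kb of 60.9% (58.9 to 62.8) and within 50 kb of 93.6% of them, with a median gap of 2.43 kb. Within 5 kb, untreated CK1750 cells had a peak at 50.7% (48.7 to 52.7) of the regions, untreated Tnm2 cells at 50.6% (48.6 to 52.6) and treated Tnm2 cells at 35.8%. These lists differed in length and held 27340, 30631 and 18789 peaks. Regions found only in untreated CK1750 had a peak of another list within 5 kb in 48.1% (46.6 to 49.7), with a median gap of 5.68 kb, and those found only in treated Tnm2 in 58.6% (55.4 to 61.7). At the edge of the rule, 150 members lay within 100 bp of a peak of another list, and 123 treated CK1750 peaks missed membership by an overlap of 1 to 100 bp.

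For 60.8% (58.9 to 62.8) of the regions, the protein-coding gene with the nearest TSS, at any distance, had a promoter peak in all 4 lists. For 16.5% of the regions that gene had none in any list. Over all merged regions these shares were 64.5% (64.1 to 65.0) and 14.7%. Among regions found only in untreated CK1750 they were 53.2% (51.7 to 54.8) and 21.5%, and among those found only in treated Tnm2 59.9% (56.8 to 63.0) and 19.0%. All merged regions overlapped promoter windows more often than members, so these sets are unlike. A promoter peak in all 4 lists was seen for 64.4% (62.3 to 66.4) of members away from promoters and 40.6% (35.6 to 45.7) of promoter members.

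Promoter regions fell into those whose TSS window also held a peak of another list and those whose window held none. In 130 of 360 promoter regions (36.1%, 31.3 to 41.2), another list had a peak in the same TSS window. Examples were Tmem43, an inner nuclear membrane protein (243.33, chr6:91473756-91475310), where an untreated CK1750 peak lay 0.186 kb away, and Dok4, an adaptor of receptor tyrosine kinases (201.91), where the gap was 0.171 kb. At Sqle, the squalene epoxidase of cholesterol synthesis (241.7), the nearest untreated CK1750 peak lay 57.5 kb away, but an untreated Tnm2 peak lay 0.249 kb away.

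In the other 230 promoter regions (63.9%, 58.8 to 68.7), no other list had a peak in the TSS window, and 158 of these were at protein-coding genes, 21 of them scoring 100 or more. The highest was the TSS shared by Alkbh4, a dioxygenase, and Lrwd1, a subunit that binds the origin recognition complex (206.26, chr5:136135594-136136951), 17.6 kb from any other list's peak. The start of Tube1, the epsilon-tubulin gene, and Fam229b (158.91, chr10:39133640-39134626) was 478 kb from the nearest peak of another list. Muc13, a transmembrane mucin of gut epithelia, followed at 147.51, Pisd, the mitochondrial enzyme that makes phosphatidylethanolamine, at 144.62, and Ramp2, a co-receptor for adrenomedullin, at 143.45. Pgm2l1, a sugar phosphomutase (126.85), and Vnn1, a pantetheinase (100.63), had no peak of another list for 56.9 and 96.7 kb. Members were chosen for lacking overlap with other lists. The share with an otherwise empty TSS window was not computed for the other sets from a single list. Whether it is particular to treated CK1750 was therefore not tested.

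Few regions stood far from the peaks of other lists, since 2258 of 2412 had such a peak within 50 kb. Besides Tube1 and Pgm2l1, the highest-scoring of those without one were in introns of Atf6, a transcription factor of the unfolded protein response (148.57), and of Ambra1, a regulator of autophagy (132.54), although 86.7% of the Ambra1 window was repeat-masked sequence. Others were in an intron of Cdh13, an atypical cadherin (113.16), between genes 54.3 kb from Mme, a membrane metalloprotease (109.85), and in an exon of Gm8588, 52.9 kb from Id4, an inhibitor of basic helix-loop-helix factors (109.56).

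Several genes gathered more than 1 of the regions. Within 100 kb, 2033 regions had a protein-coding TSS, and they fell to 1587 genes, of which 315 were nearest to 2 or more and 91 to 3 or more. Counted by nearest TSS in this way, Cdk14, a cyclin-dependent kinase, had the most, with 7 intronic regions scoring 56.37 to 120.59. They were among the 17 treated CK1750 regions nearest to it. Basp1, a membrane signaling protein, and Myo1e, a class I myosin, had 6 each. Pkp1, Psapl1, Tnfaip3, Kcne2 and Iqsec1 were among those with 5 each.

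The promoters of these genes differed. Cdk14, Basp1, Myo1e and Iqsec1, an exchange factor for Arf6, had promoter peaks in all 4 lists. Pkp1 and Psapl1 had a promoter peak only in the treated CK1750 list, and in both genes that peak was itself 1 of the regions, at 52.64 and 98.38. Kcne2, a potassium channel subunit of gastric parietal cells, and Krt20, a keratin of gut epithelium with 4 regions at 15.1 to 20.9 kb from its TSS, had no promoter peak in any list. Tnfaip3, an inhibitor of NF-kB signaling, had promoter peaks in all lists but treated Tnm2.

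Regions found only in untreated CK1750 lay at many of the same genes. Of the 1587 genes, 544 were also nearest to such a region, beside 2512 of the 12450 genes nearest to any merged region. Of the 91 genes with 3 or more members, 28 had none of them, and of the 128 genes with 3 or more regions found only in untreated CK1750, 65 had no member. Iqsec1, Pkp1, Tnfaip3, Zfhx3, Styk1 and Krt20 had 4 or 5 members each and 0 regions found only in untreated CK1750, whereas Psapl1, Maml3 and Klf6 had 4 of them and Unc5b, a netrin receptor, had 5 against its 4 members.

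Neighbouring members formed short runs. With gaps of up to 10 kb, 1988 regions stood alone, 181 runs had 2 members, 14 had 3 and 5 had 4. The 5 runs of 4 were at Abcb1a, which encodes the drug exporter P-glycoprotein, Pkp1, Mtap, an enzyme of methionine salvage, Krt20 and Kcne2. The Kcne2 run spanned 8.34 kb with scores of 73.97 to 101.66, and the Krt20 run 6.34 kb with scores of 56.49 to 115.27.

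The regions were unevenly spread over the chromosomes. Chromosome 3 had the highest share of treated CK1750 regions that were members, 239 of 1518 (15.7%, 14.0 to 17.7), followed by chromosome 15 with 194 of 1297 (15.0%, 13.1 to 17.0). Chromosome 19 had the lowest, 50 of 817 (6.12%, 4.67 to 7.98). Of the untreated CK1750 regions on chromosome 3, 291 of 1514 (19.2%, 17.3 to 21.3) were found only in untreated CK1750. Chromosome 15 had 194 regions found only in treated and 174 found only in untreated CK1750, and on each of the other 19 chromosomes the untreated list had more. The X chromosome had 28 against 121. In stretches of 10 Mb with at least 50 treated regions, the median share was 10.0%, and the highest was at 0 to 10 Mb of chromosome 5, where 38 of 109 treated CK1750 regions were members (34.9%, 26.6 to 44.2). The same stretch had 77 untreated CK1750 regions, 10 of them found only there, and 41 treated Tnm2 regions, 1 of them found only there. It holds Cdk14, the run at Abcb1a and a run of 3 at Crot, a peroxisomal carnitine acyltransferase.

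**Figure D3:**
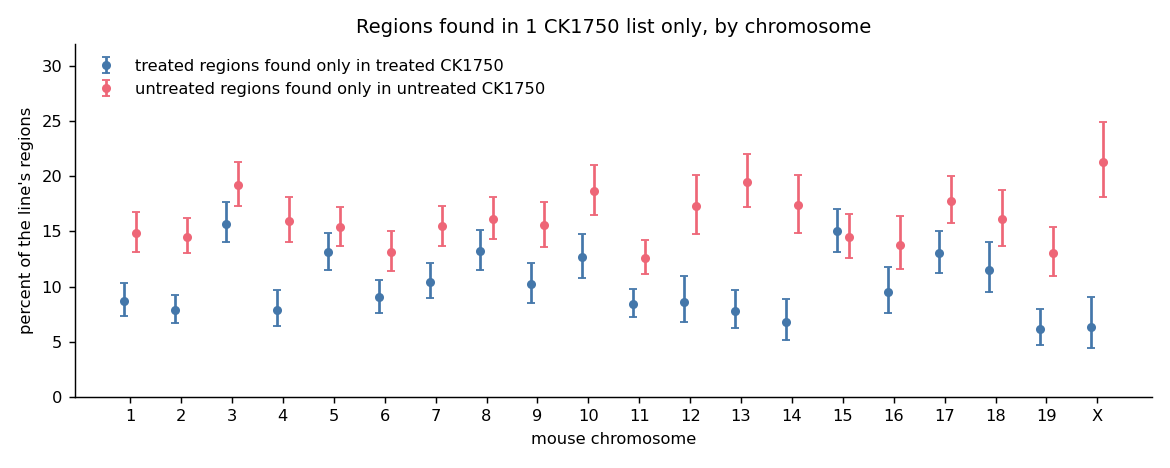
Percent of treated CK1750 regions found only in treated CK1750 (blue) and of untreated CK1750 regions found only in untreated CK1750 (red) on each mouse chromosome (x axis), with Wilson 95% intervals. The blue share was 15.7% on chromosome 3 and 6.12% on chromosome 19, and on chromosome 15 it was 15.0% beside a red share of 14.5%.

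The 300 bp at their centres had a median GC content of 50%, against 57.7% in regions of all 4 lists, 50% in those of them away from promoters and 44.7% in peak-free windows 10 kb from the members. The ratio of observed to expected CpG had a median of 0.152 (0.146 to 0.157) in members away from promoters and of 0.198 (0.194 to 0.203) in regions of all 4 lists away from promoters. Near-identical copies elsewhere in the genome, which leave read placement uncertain, were found for 26 members (1.08%, 0.737 to 1.58), beside 1.59% (0.968 to 2.61) of regions found only in treated Tnm2, 1.04% (0.819 to 1.31) of those found only in untreated Tnm2 and 9.03% (8.16 to 9.98) of those found only in untreated CK1750. Windows that were mostly repeat-masked made up 8.04% of members, 7.21% of all merged regions, 7.86% and 8.05% of regions found only in treated and only in untreated Tnm2, and 18.1% of those found only in untreated CK1750. In both measures members were close to the Tnm2 sets, and the set found only in untreated CK1750 stood apart.

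AP-1 letters, bound by FOS and JUN dimers downstream of MAPK signaling, were present in 307 of 2412 centre windows (12.7%, 11.5 to 14.1). All merged regions had them in 11.8%, peak-free windows in 9.09% (8.24 to 10.0) and regions of all 4 lists away from promoters in 18.7% (17.7 to 19.9). Away from promoters, members had them in 13.4% (12.0 to 14.94) and regions found only in treated Tnm2 in 15.35% (13.04 to 17.97). Members at 100 or more had them in 44 of 268 windows (16.4%, 12.46 to 21.3). That interval lies above the share of the peak-free windows. It holds both the share of all members and that of regions of all 4 lists away from promoters. The same letters rearranged (TCANTGA) were in 8.25% (7.22 to 9.42) of members, and in 9.29% of peak-free windows. TEAD letters, bound by the partners of YAP, were in 18.5% (17.0 to 20.1) of members, in 20.6% (19.4 to 21.7) of regions of all 4 lists away from promoters and in 15.4% (14.3 to 16.5) of peak-free windows.

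SP/KLF letters (GGGCGG), common in CpG-rich promoters, were in 8.33% (7.30 to 9.50) of members and in 21.9% of all regions. Away from promoters, the share was 5.12% (4.25 to 6.16) in members and 10.6% (9.72 to 11.5) in regions of all 4 lists. FOX letters were in 3.73% of members and 4.16% of all regions, and RUNX letters in 7.01% and 6.07%. CEBP letters were in 9.91% of members and 9.46% of all regions, and NKX2 letters (TCAAGTG) in 4.02% and 3.34%. Peak-free windows held FOX letters in 3.52%, RUNX letters in 8.075%, CEBP letters in 11.54% and NKX2 letters in 3.86%. GATA letters (AGATAA) were in 11.7% of members, in 17.2% (13.1 to 22.1) of members at 100 or more and in 17.2% (16.1 to 18.4) of the more AT-rich peak-free windows. Regions found only in untreated CK1750 had AP-1 letters in 11.5% (10.5 to 12.49) and TEAD letters in 16.4% (15.3 to 17.6), with intervals that overlapped those of the members.

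**Figure D4:**
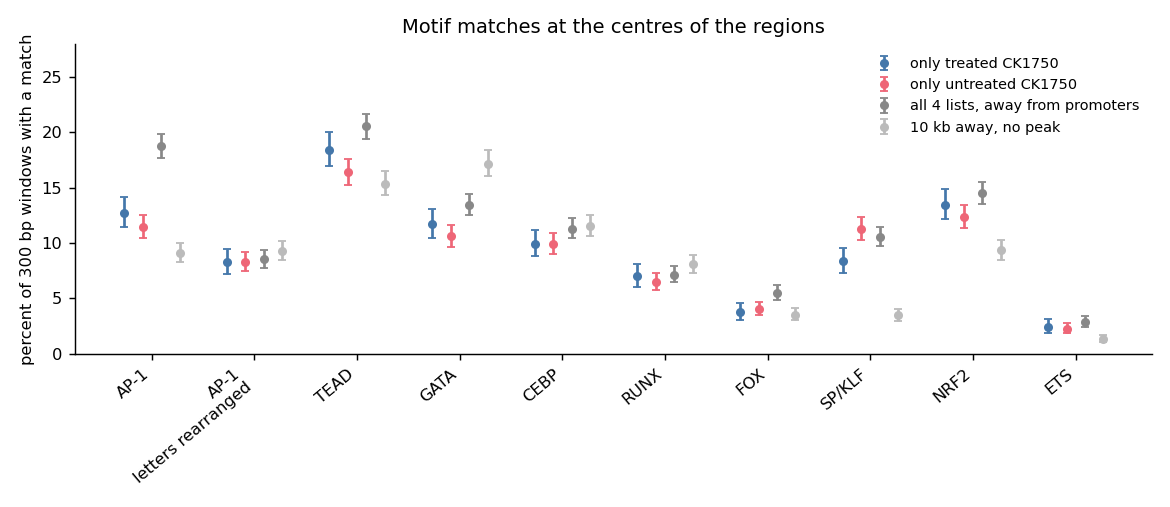
Percent of 300 bp centre windows (y axis) with a match to 10 sets of motif letters (x axis) in members, regions found only in untreated CK1750, regions of all 4 lists away from promoters, and peak-free windows 10 kb from members, with Wilson 95% intervals. AP-1 letters were in 12.7% of members, between 9.09% of peak-free windows and 18.7% of regions of all 4 lists away from promoters.

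Genes of 12 lists were searched for members within 50 kb, and 78 list genes had at least 1. Over all 21728 protein-coding genes the share with a member was 17.5%, and over the 17004 genes with any H3K27ac peak within 50 kb it was 22.4%. For regions found only in untreated CK1750 the share over all genes was 25.9%. These shares were taken at 50 kb and at any score. Counts of list genes within 10 kb or at a score of 100 or more have no such share beside them. Longer genes were hit more often, from 13.9% of genes under 10 kb to 23.7% of genes of 100 kb or more, and the listed genes have median lengths of 8.75 to 80.9 kb.

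Among integrins and genes of adhesion and the actin cytoskeleton, 18 of 30 genes had a member within 50 kb, and 23 of 30 had a region found only in untreated CK1750. All 30 had some H3K27ac peak in that distance, and the median gene length was 75.3 kb. The subunit gene Itgb5 had 5 members within 50 kb, but the highest, at 147.51, lay on the promoter of its neighbour Muc13. Itgb6, a subunit of a TGF-beta-activating integrin, had an intronic member at 91.14 and a promoter peak in each list except that of untreated CK1750. Palld, an actin-binding scaffold, had 4 members, the highest at 71.61, and Ptk2, the focal adhesion kinase, had 3.

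Of 32 genes of the extracellular matrix, 11 had a member and 14 a region found only in untreated CK1750. Timp2, an inhibitor of metalloproteinases, had 4, the highest at 129.88. The laminin gene Lamb3 had 1 in an intron at 122.95, and Col4a1 and Col4a2, the basement membrane collagens that share a promoter, had their highest at 119.3 in an intron 5.69 kb from the Col4a1 TSS. An intron of Loxl2, a collagen cross-linking enzyme, held a member at 133.94, and the Loxl2 promoter had a peak in untreated CK1750 and in no other list. Among semaphorins and their receptors, 8 of 20 genes had a member, with the highest score in an intron of Nrp2 (114.38), 1 of 3 there.

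In the TGF-beta pathway 8 of 21 genes had a member, and 12 had a region found only in untreated CK1750. Ltbp1, which stores latent TGF-beta in the matrix, had 8 members, all inside the gene and scoring up to 78.59. It also had 3 regions found only in untreated CK1750. These counts go by distance to the gene, unlike the counts by nearest TSS above. Bambi, a TGF-beta pseudoreceptor, had 1 member at its TSS (59.57), and its promoter had a peak in no other list. Id1, a target of BMP signaling, had 3 within 50 kb, the highest at 108.88 in an intron whose nearest protein-coding gene was Mcts2.

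Of 16 lung and gastric lineage factors, Hnf4a, Hmga2 and Runx2 had members, and 10 had a region found only in untreated CK1750. Hnf4a, a regulator of gut and liver identity, had 4 members, the highest at 122.25 in an intron 2.65 kb from a TSS, while its promoters had no peak in any list, and 3 regions found only in untreated CK1750 lay in the same span. Runx2 had 6 members, the highest at 99.97. Hmga2, a chromatin protein of embryonic and advanced tumor cells, had 2 intronic members, the higher at 70.7.

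Of the genes that the study's text ties to G9a, Ly6a, which encodes Sca-1, had 2 members within 50 kb, at most 62.24, and 4 regions found only in untreated CK1750. No member lay inside Ly6a, and the one at 62.24 was nearest to Ly6e, 7.21 kb from a TSS of that gene. The Ly6a promoter had a peak in both CK1750 lists and in untreated Tnm2. Mmp10, Mmp13, Anxa10, Ctse and Lcp1 had no member within 50 kb. Since the study chose these genes in this system, they are not independent evidence of a direction. The same list also held Wnt7a, which had no member, and Mcpt2, Mcpt4 and Mcpt8, mast cell proteases near 2 members of which the higher scored 53.07. The study's results text does not name these genes, although its methods list an antibody to Mcpt4 for tumor sections.

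The AP-1 family had members at 4 of 12 genes (Fosb, Fosl2, Jun and Jund), none within 10 kb, and 6 of the 12 had a region found only in untreated CK1750. YAP/TEAD genes had them at 4 of 15 against 9, the highest in an intron of the receptor kinase Axl (98.97). Interferon and MHC class I genes had them at 3 of 20 (15.0%) against 10, with 1 of the 20 within 10 kb, and Nrf2 pathway genes at 4 of 13 against 4. The H3K9 methylation machinery had them at 7 of 16 against 5, with 2 of the 16 within 10 kb, and scores there reached 86.25 within 50 kb of Cbx1, a heterochromatin protein gene, at a site 0.306 kb from the TSS of Snx11. Ehmt1 and Ehmt2, which encode Glp and G9a, had none.

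**Figure D5:**
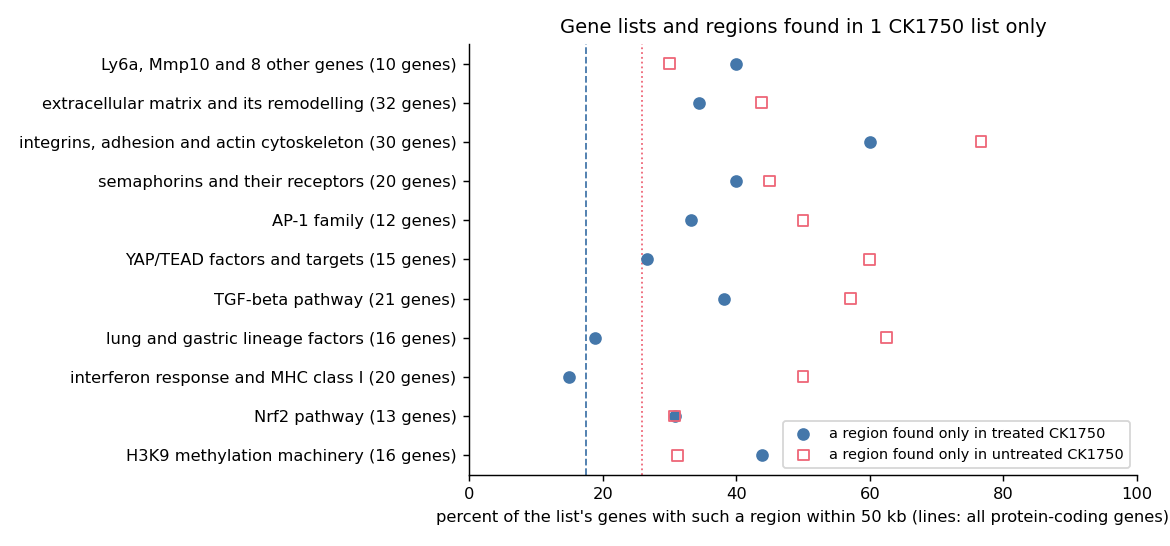
Percent of the genes of 11 of the lists (rows, number of genes in brackets) with a region found only in treated CK1750 (filled circles) or only in untreated CK1750 (open squares) within 50 kb; lines mark the shares over all protein-coding genes, 17.5% (dashed) and 25.9% (dotted). Circles run from 15.0% for interferon and MHC class I genes to 60% for integrins, adhesion and actin cytoskeleton.

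Defining markers were read from promoter peaks to check the labelled cells. In both CK1750 lists, 4 of 6 epithelial markers (Cdh1, Krt8, Krt18 and Krt19) and 1 of 5 alveolar type 2 markers (Nkx2-1) had a promoter peak. Epcam and Krt7 had none in either CK1750 list, and Sftpc, which defines alveolar type 2 cells, had none in any list. None of 5 leukocyte and 4 endothelial markers had a promoter peak in any list, and of 5 fibroblast markers Col1a1 alone had one, in both CK1750 lists and that of untreated Tnm2.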

How the data were processed

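The authors sequenced H3K27ac immunoprecipitates of CK1750 and Tnm2 cells given DMSO or UNC0638, with 2 or 3 samples per group. According to the methods and the submitters' processing notes, reads were mapped to mm10 with Bowtie2, SAMtools was used, and MACS 1.4.2 called the peaks with 1e-05 as its P value limit. The deposited lists give the position of each peak and a score, its P value on the negative log10 scale times 10 as the authors' caller wrote it. Each group has 1 list. Which libraries entered it and whether input DNA was the control are not given in the sources used here. Depth is unknown, and a score grows with depth, so scores were not compared between lists.

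Peaks of the 4 lists were merged where they overlapped or touched, and 51 peaks off chromosomes 1 to 19 and X were left out. Genes and 75508 TSS positions were from the GENCODE M21 basic annotation. No peak ended beyond the 20 chromosomes of the GRCm38.p6 reference. Because presence in the lists defined the regions and each group had 1 list, no test was run. Shares have Wilson intervals and medians order-statistic intervals, from scipy 1.17.1. Copies were sought with minimap2 2.31 (95% identity over 80% of a region). The merging, gap and motif functions were tested on simulated data. 17 sets of motif letters were searched on both strands. NRF2 letters can overlap AP-1 letters.

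Regions named were the 20 highest by score, the 10 highest at promoters and the 10 highest without another list's peak within 50 kb. Genes named were the 20 with most members by nearest TSS, and the list genes with a member within 50 kb. The regions and gene lists were chosen with earlier results of these data known. Promoter regions with no other peak in the TSS window, the chromosome 5 stretch and the runs were singled out after their values were seen. A few named genes and 1 gene list are not reported here.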

Additional observations from a re-analysis of the deposited data

How the results depend on the processing

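No paired analysis was possible because each group has a single list, and for the same reason no replicate could be left out. The number of regions, 2412, was 1250 when peaks under 100 were dropped from all lists, 268 when members had to reach 100, 1550 without a peak of another list within 1 kb, 1473 after joining peaks within 1 kb and 4116 when sharing needed 50% reciprocal overlap. With all lists cut to the 18789 highest peaks it was 1612, the promoter share 23.0%, the intron share 59.4%, the median TSS distance 8.65 kb, the share with another list's peak within 5 kb 48.2% and the share with a gene marked in all 4 lists 52.8%. The promoter share was 22.8% in a window of 2.5 kb and 10.7% for protein-coding TSSs, to which the median distance was 20.9 kb. Without another list's peak within 1 kb, the TSS distance was 11.2 kb, the share within 5 kb 39.1% (by construction lower), the share with a gene marked in all lists 57.4% and the AP-1 share 14.4%. At 100 or more, the share within 5 kb was 63.1%, the gene share 57.5%, the AP-1 share 16.4%, GC 49.7% and the number of list genes 11. The share within 10 kb was 73.0%. In 600 bp windows the AP-1 share was 27.3% and GC 48.8%. At 90% identity over 50% of a region, 2.07% had copies. Within 10 kb in place of 50 kb, 2 genes of the H3K9 methylation machinery had a member, against 7. The number of regions moved with the score limit and the overlap rule. Depth is unknown, and its part was not tested.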
